A study of Mus musculus with 12 samples.

Results

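Oxidative phosphorylation runs on protein complexes of the inner mitochondrial membrane, most of whose subunits are encoded in the nucleus. Nuclear genes with symbols starting in Ndufa, Ndufb, Ndufc, Ndufs or Ndufv (complex I), Uqcr (complex III), Cox4 to Cox8 (complex IV) and Atp5 (complex V) were taken from the protein-coding genes of the mouse annotation by name, which gave 87 Ensembl genes with 86 distinct symbols among 37991 counted genes. By prefix, 43 belonged to complex I, 8 to complex III, 19 to complex IV and 17 to complex V. The rule uses symbols and no measured value, but the members were chosen with earlier results of these data known. Of the 87, 79 are structural subunits and 8 carry such a symbol without being one, namely the assembly factors Ndufaf1, Ndufaf2, Ndufaf3, Ndufaf4 and Atp5sl, the coupling factor B gene Atp5s, the supercomplex factor Cox7a2l, and Cox4nb, which encodes a protein of the ER membrane complex.

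Complex I takes electrons from NADH, complex III passes them through cytochrome c to complex IV, which reduces oxygen, and the proton gradient built on the way drives ATP synthesis by complex V. Neurons depend on this pathway to pay for ion pumping after synaptic activity, and the nuclear genes must supply subunits that fit those encoded by mitochondrial DNA (mtDNA). Many of these mRNAs are short, and the factors NRF1, NRF2 (the ETS family factor GABP) and YY1, with the coactivator PGC-1alpha, are known to act on their promoters.

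Gene-level read counts of poly(A) RNA were available for hippocampi of 12 C57BL/6N mice, 6 labelled Wildtype and 6 labelled Gadd45a-KO (genotype Gadd45a-/-), born to heterozygous parents of 1 knockout line. All 12 went through the passive avoidance (PA) test, an aversive learning task, at an age of 6 to 7 months by the labels (the study's methods give adult males of 2 to 6 months), and the tissue was taken 1 h later, so that no untrained animal enters the comparison. The comparison asks whether Gadd45a, a stress-inducible gene studied here for its part in memory, affects the mRNA levels of the subunits. Libraries held 44594261 to 55540601 reads on genes, of which the 87 genes took 0.686 to 0.769%, or 310420 to 415624 reads. Reads on Gadd45a itself went against the labels, with 2.19 to 3.43 CPM (read counts scaled to 1000000 reads of a library) in the libraries labelled Wildtype and 20.5 to 23.1 CPM in those labelled Gadd45a-KO. By the methods of the study a neomycin cassette replaced the exons before the last, which was left in place, and the counts do not separate exons. Groups are therefore called by their labels. All 5 hippocampal markers were detected in all libraries. They summed to 994 to 1102 CPM under the Wildtype label and 855 to 1011 CPM under the Gadd45a-KO label, and 1 of them passed 1% FDR in the edgeR test over all genes, Zbtb20, at -0.43 on the log2 scale (Gadd45a-KO minus Wildtype labels; adjusted p = 0.00113). Gadd45a-KO replicates 2 and 3 stood apart, with 230 and 340 CPM summed over 5 thalamic markers against 74.9 to 119 in the other 10 libraries, and replicate 3 also with 6898 CPM over 5 oligodendrocyte markers against 2180 to 3539. In these lists 0 of 5 markers each were called, with log2 fold changes of 0.31 to 1.56 and 0.39 to 0.49. Estimates were also above 0 for 5 of 5 astrocyte, 5 of 5 microglial and 5 of 5 endothelial markers. The same held for 3 of 4 choroid plexus markers tested, 3 of 5 neuronal and 1 of 5 interneuron markers. In each of these lists 0 were called. The part of these markers in the results was not tested. In bulk tissue, fewer cells of a type and less RNA per cell cannot be told apart.

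Promoter windows of 300 bases, from 250 before to 50 after the transcription start, were available from RefSeq (GRCm38.p6) for 71 of the 86 symbols. The sequences of 6 are shown. Cox6a1, Uqcr11, Ndufs7 and Cox8a are the members with a window whose mRNAs varied most in common between libraries, apart from Atp5d, and Cox7a2 and Cox7a1 are the main and the muscle isoform of a complex IV subunit. Capitals mark exact matches, on either strand, to GCGCANGCG (NRF1), CCGGAAG (ETS factors such as GABP) or AAGATGGC (YY1), and overlapping matches run together.
Cox6a1 window, chr5:115348909-115349208, minus strand.
Cox6a1: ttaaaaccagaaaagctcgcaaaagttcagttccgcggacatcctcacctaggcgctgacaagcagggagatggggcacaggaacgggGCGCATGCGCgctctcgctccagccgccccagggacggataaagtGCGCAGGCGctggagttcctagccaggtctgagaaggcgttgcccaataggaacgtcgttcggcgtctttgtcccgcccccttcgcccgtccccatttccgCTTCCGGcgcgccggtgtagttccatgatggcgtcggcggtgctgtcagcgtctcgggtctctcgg
Uqcr11 window, chr10:80406772-80407071, minus strand.
Uqcr11: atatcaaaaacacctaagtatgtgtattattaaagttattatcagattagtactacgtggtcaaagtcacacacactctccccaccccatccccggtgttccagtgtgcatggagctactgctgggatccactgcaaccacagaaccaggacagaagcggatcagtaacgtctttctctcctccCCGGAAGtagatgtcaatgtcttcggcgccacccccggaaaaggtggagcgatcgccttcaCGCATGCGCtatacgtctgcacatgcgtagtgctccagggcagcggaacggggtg
Ndufs7 window, chr10:80249199-80249498, plus strand.
Ndufs7: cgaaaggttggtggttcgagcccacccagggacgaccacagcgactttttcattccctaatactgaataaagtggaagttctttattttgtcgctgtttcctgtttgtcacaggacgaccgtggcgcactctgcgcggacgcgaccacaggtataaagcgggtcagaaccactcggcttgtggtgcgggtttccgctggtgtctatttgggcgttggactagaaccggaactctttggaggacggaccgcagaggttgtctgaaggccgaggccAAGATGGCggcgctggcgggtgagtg
Cox8a window, chr19:7217567-7217866, minus strand.
Cox8a: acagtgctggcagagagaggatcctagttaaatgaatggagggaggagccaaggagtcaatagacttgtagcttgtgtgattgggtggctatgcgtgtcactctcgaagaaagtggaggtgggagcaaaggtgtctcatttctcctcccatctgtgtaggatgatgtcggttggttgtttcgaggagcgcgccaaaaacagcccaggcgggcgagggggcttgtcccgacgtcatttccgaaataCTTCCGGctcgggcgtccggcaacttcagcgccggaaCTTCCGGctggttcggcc
Cox7a2 window, chr9:79759804-79760103, minus strand.
Cox7a2: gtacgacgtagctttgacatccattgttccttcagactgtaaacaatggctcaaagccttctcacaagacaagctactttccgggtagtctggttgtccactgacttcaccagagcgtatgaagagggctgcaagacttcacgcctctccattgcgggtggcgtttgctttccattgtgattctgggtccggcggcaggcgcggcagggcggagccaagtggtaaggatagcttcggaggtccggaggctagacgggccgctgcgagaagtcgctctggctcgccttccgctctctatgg
Cox7a1 window, chr7:30183921-30184220, plus strand.
Cox7a1: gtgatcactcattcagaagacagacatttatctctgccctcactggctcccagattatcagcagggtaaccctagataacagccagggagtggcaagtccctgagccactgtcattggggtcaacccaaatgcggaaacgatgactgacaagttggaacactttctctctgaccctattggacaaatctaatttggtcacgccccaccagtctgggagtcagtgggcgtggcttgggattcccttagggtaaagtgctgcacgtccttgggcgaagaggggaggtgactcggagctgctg

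In Cox6a1 the NRF1 letters overlapped on both strands at bases -162 to -153 from the start and stood again at -117 to -109, with ETS letters at -16 to -10. Uqcr11 held ETS letters at -66 to -60 and NRF1 letters across the start itself, from -5 to 4. Ndufs7 held the YY1 letters at 25 to 32, inside the transcript, and a TATAAA at -99 to -94. Cox8a held ETS letters at -5 to 2 and at 33 to 39. Neither Cox7a window held any of the 3 motifs. Over all members, 20 of 77 windows (26.0%) held the NRF1 letters against 6.25% of all 32851 promoter windows, 15 (19.5%) held the ETS letters against 8.86%, and 12 (15.6%) held the YY1 letters against 2.75%. TATAAA was found in 8 of the 77 windows (10.4%) and in 13.6% of all. Some genes have several windows, and the members' windows were richer in GC, with a median of 57.3% against 52.7%. A match describes letters in a window and shows no binding.

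The mRNA levels of the subunits differed widely within each complex. Levels between genes are given as mean CPM per kb of mRNA over the 12 libraries, with the median length of the annotated coding transcripts as the length. Atp5b, the catalytic beta subunit of the ATP synthase (chr10:127520329-127527447 in NCBIM37), was highest with 481 CPM per kb (452 to 508 over the libraries), followed by Cox4i1 with 430 (409 to 458) and Cox8a with 364 (307 to 449). Over the libraries the ranges of Atp5b and Cox4i1 met at their ends, and those of Cox4i1 and Cox8a overlapped. Next came Ndufa4 with 328, Atp5a1 with 309, Cox6a1 with 274 and Cox6b1 with 270 CPM per kb, whose ranges overlapped from each gene to the next. Ndufa4 carries a complex I name, but its protein is now counted with complex IV. By symbol, Ndufa4 and Ndufa4l2 stay with complex I in all counts, medians and sums here.

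The median level was 61.9 CPM per kb for the 38 tested subunits of complex I, 114 for the 8 of complex III, 116 for the 15 of complex IV and 132 for the 15 of complex V. Among the catalytic core of complex I, which binds the flavin and the iron-sulphur clusters, Ndufs3 was lowest at 42.7 CPM per kb, and Ndufv1 had 92.0. The core proteins Uqcrc1 and Uqcrc2 and the Rieske protein Uqcrfs1 of complex III spanned 1.79-fold. In the F1 head of complex V the range was 4.58-fold. There Atp5b and Atp5a1, whose proteins form the catalytic hexamer in several copies each, stood above Atp5c1, the central stalk gamma subunit, at 175 CPM per kb, and above Atp5d and Atp5e, the remaining stalk subunits, at 105 and 114. The peripheral stalk genes Atp5f1, Atp5h, Atp5j and Atp5o spanned 1.80-fold, the highest being Atp5o at 136 CPM per kb.

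Low levels of some ordinary subunits stood beside sequence shared with other places in the genome. Atp5l had 12.6, Cox7c 9.37 and Ndufb4 7.72 CPM per kb, the lowest values of complexes V, IV and I outside isoforms restricted to other tissues, and 89.4%, 29.7% and 33.9% of the 51-base windows of their transcripts recurred elsewhere in the genome. The same share was 100% for Atp5g2, 56.02% for Cox5b and 52.7% for Cox7a2l. Share and level did not go together throughout. Cox5b had 116 CPM per kb, and Cox8a had 364 at a share of 20.4%, while Ndufb2 had 14.2 at 4.43%. The share was above 10% for 18 of the 87 genes and 0 for 42. Reads that align to several places were left out of the deposited gene counts, so the levels of these genes are uncertain, and how much each one lost was not tested.

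**Figure D1:**
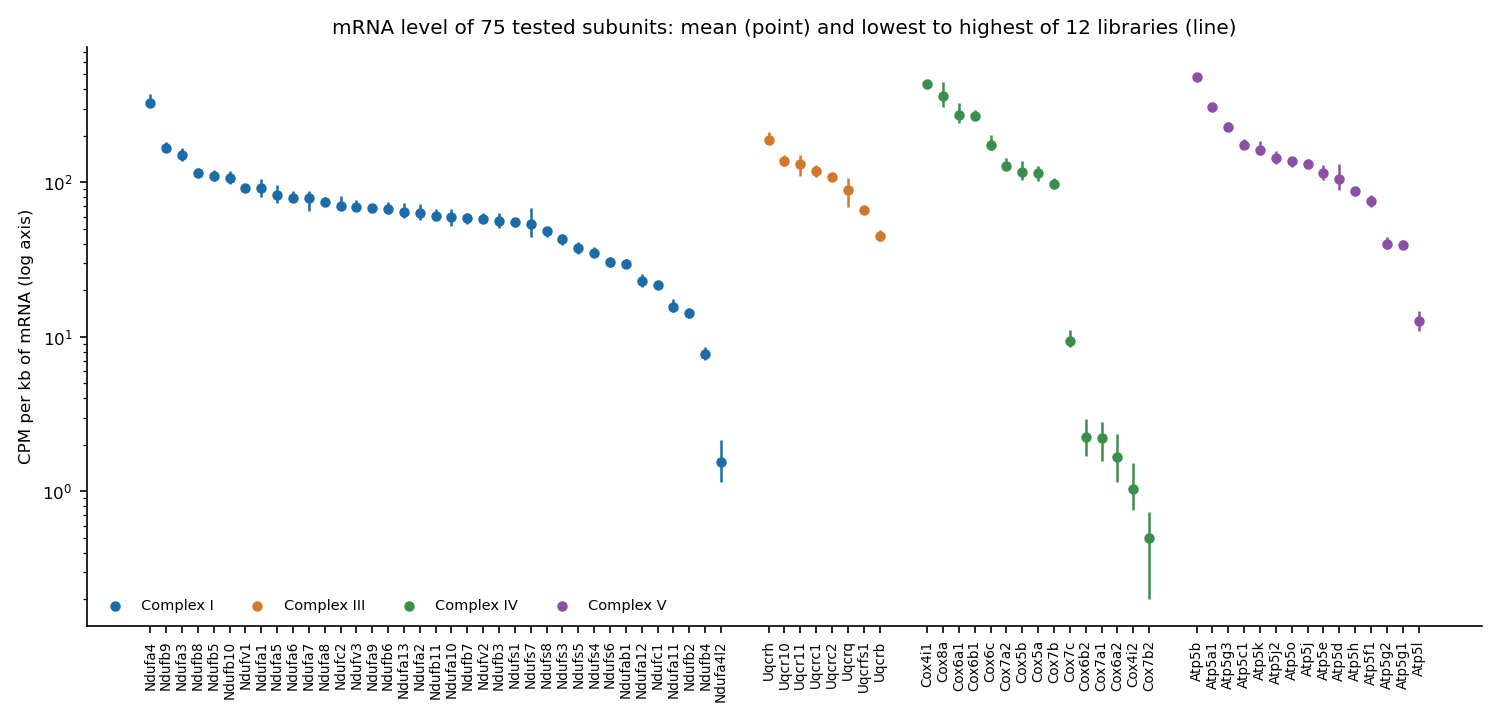
Mean CPM per kb of mRNA (log axis) of 75 tested structural subunits, ordered by level within each complex, with a line from the lowest to the highest of 12 libraries. Atp5b leads complex V at 481 and Cox4i1 complex IV at 430, and the isoforms restricted to other tissues lie at or below 2.25.

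Several subunits come in isoforms made by separate genes, and in each such set 1 gene held most of the level in all 12 libraries. Cox4i1 made up 99.7 to 99.8% of the summed CPM per kb of the Cox4 pair, beside Cox4i2, an isoform known from lung and responsive to oxygen. Cox6a1 held 99.2 to 99.6% of its pair with the heart and muscle isoform Cox6a2, and Cox6b1 held 99.0 to 99.4% with the testis isoform Cox6b2. Cox7b took 99.2 to 99.8% of its pair with Cox7b2. Cox8a had 7625 to 12188 reads per library, the muscle isoform Cox8b had 2 to 11, and no read fell on Cox8c in any library, so Cox8b and Cox8c were not tested. Ndufa4 was at 99.3% or more of its pair with Ndufa4l2, which is known as a hypoxia-induced gene.

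The c-ring of complex V is built of a single protein whose mature form is encoded by 3 genes. Atp5g3 had 227 CPM per kb and 73.2 to 75.5% of the set, while Atp5g1 and Atp5g2 had 39.2 and 39.6, with ranges that overlapped. The reads of Atp5g1 and Atp5g2 are uncertain because 27.9% and 100% of their windows recur in the genome. In the Cox7a set, Cox7a2 held 74.5 to 76.7%, the supercomplex factor Cox7a2l 22.2 to 24.2% and Cox7a1 0.952 to 1.70%. These shares are uncertain too, because 52.7% of the Cox7a2l windows recur in the genome.

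**Figure D2:**
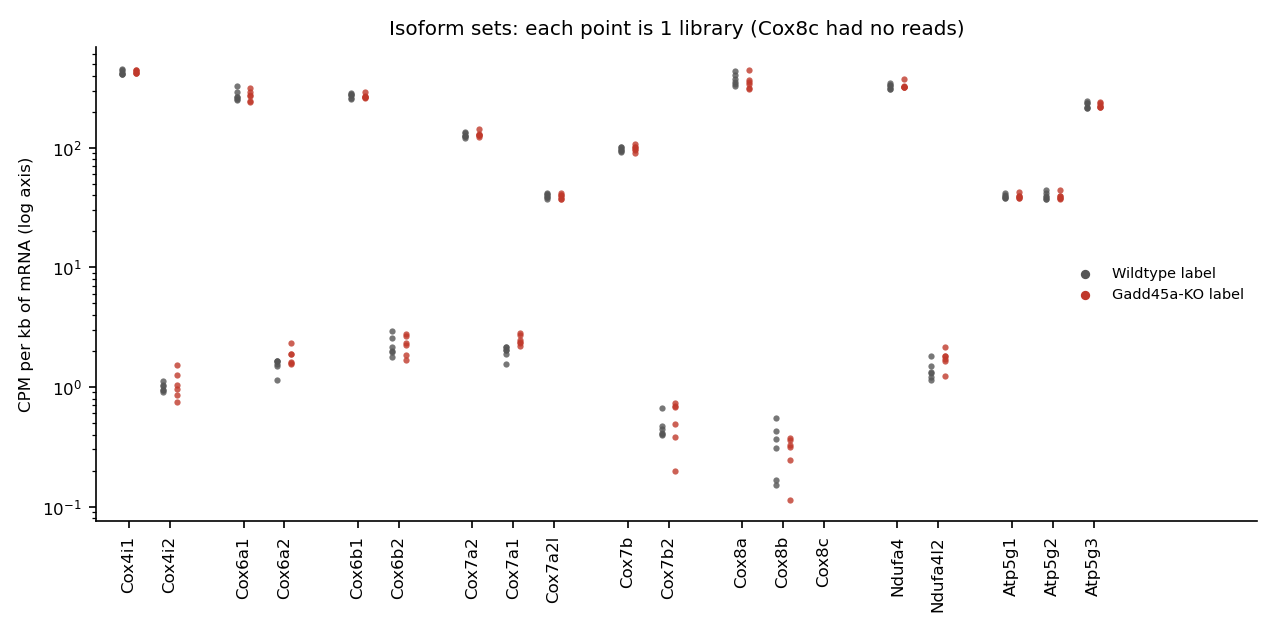
CPM per kb of mRNA (log axis) of the genes of 8 isoform sets, each point 1 library, grey for libraries labelled Wildtype and red for those labelled Gadd45a-KO. The main isoforms lie at or above 90 and the tissue-restricted ones below 3, except in the Atp5g set and for Cox7a2l, and Cox7a1 is the only gene plotted whose points do not overlap between the labels.

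Between the labels, none of the 84 tested members was called. The quasi-likelihood test of edgeR, adjusted over all genes by the Benjamini-Hochberg method, passed 0 of 84 at 1% FDR, where 434 of all 16399 genes tested passed (2.65%), 430 of them lower and 4 of them higher under the Gadd45a-KO label. DESeq2 also called 0 members. Among the 2481 genes with transcripts of up to 1000 nt, where 57 of the 84 members were under 1000 nt, 15 genes passed (0.605%). At an unadjusted p under 0.05 there were 3 members, all higher, by edgeR (3.57%) and 3 by DESeq2, against 13.7% of all genes by edgeR. The groups did not overlap for 1 member, Cox7a1, against 3.31% of all genes. The third member not tested was a second Ensembl gene named Ndufb8, which lies within Ndufb8 and Sec31b on the same strand and had no reads.

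The estimates were close to 0 with narrow intervals. The median log2 fold change (Gadd45a-KO minus Wildtype) of the 84 members was 0.01, against 0.00 over all genes tested. Estimates were positive for 54 members (64.3%, against 51.8% of all genes tested) and negative for 30. The 78 members with a mean of at least 5 CPM lay between -0.07 and 0.09. For 77 of the 84, the whole 95% interval of the difference lay within a 1.2-fold change in either direction. The 7 others were Uqcrq and the low-level isoforms Cox4i2, Cox6a2, Cox6b2, Cox7a1, Cox7b2 and Ndufa4l2, whose intervals were wider. Absolute log2 fold changes under 0.1 were found for 94.0% of the members and 65.3% of all genes, the members having the smaller median standard error, 0.05 against 0.07.

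**Figure D3:**
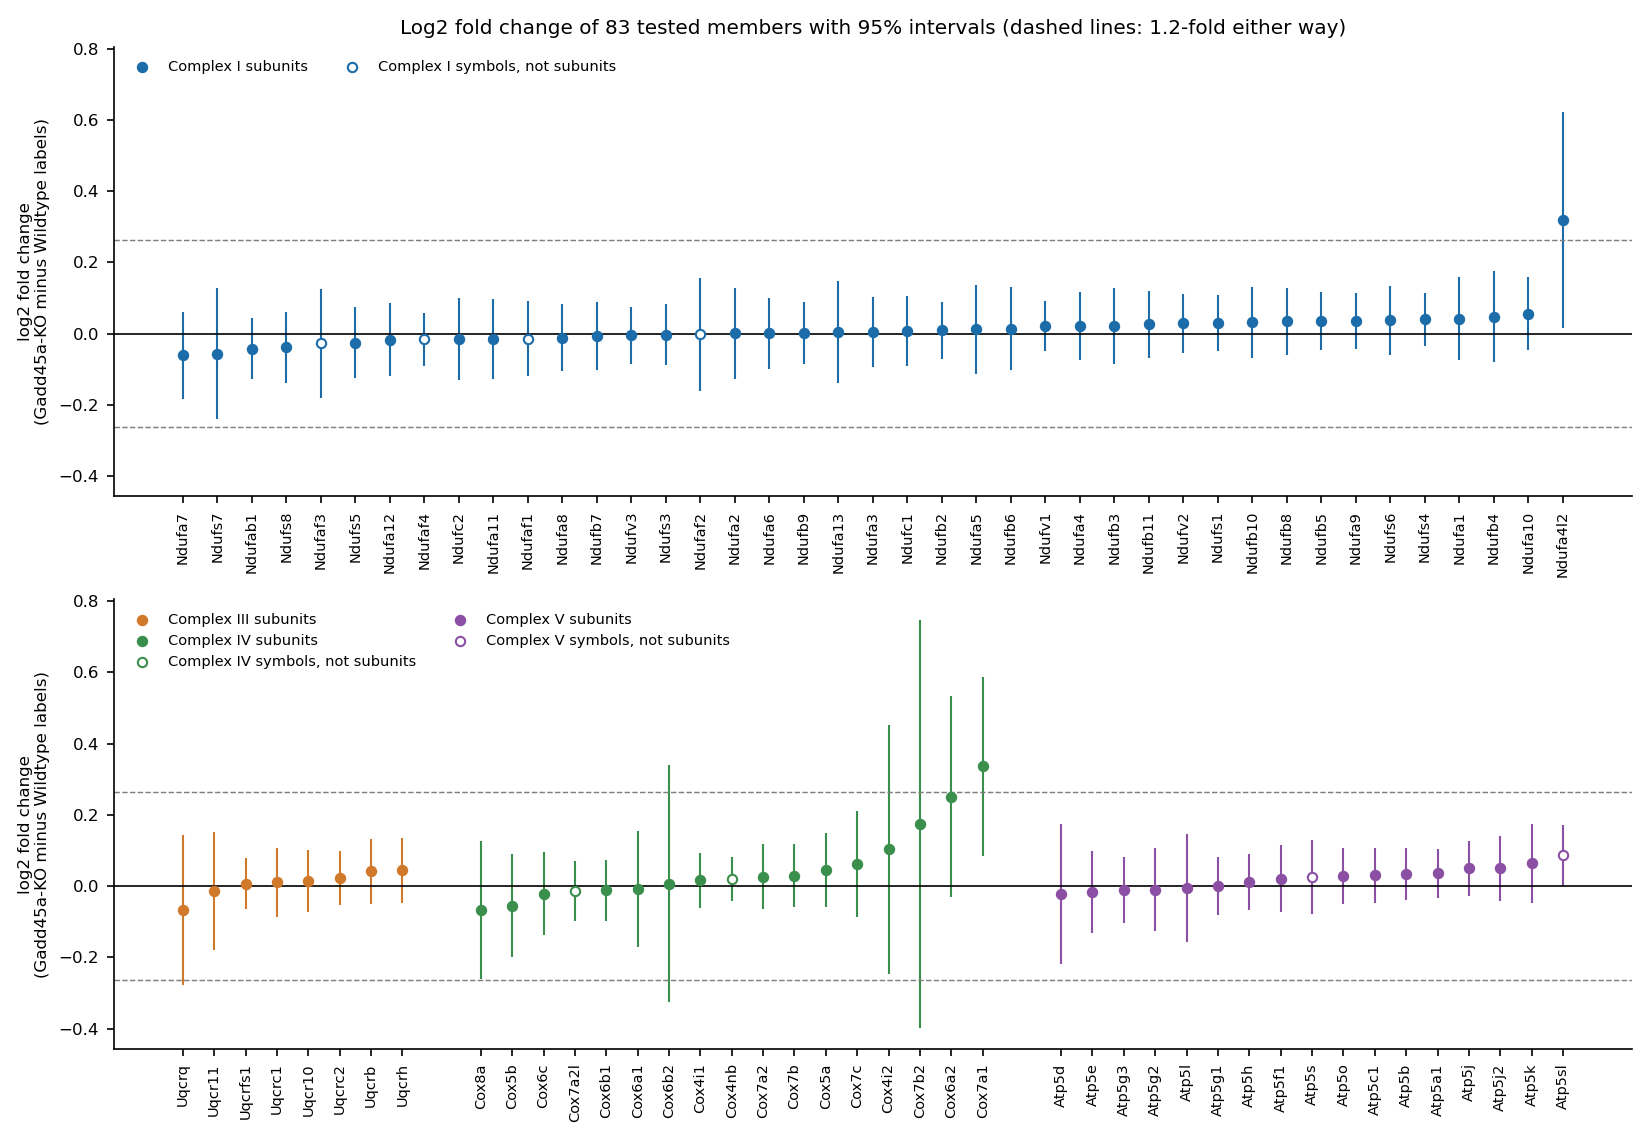
Log2 fold change with 95% interval of 83 tested members by complex (Gadd45a-KO minus Wildtype labels), filled points for structural subunits, open points for the 8 other genes, and dashed lines at 1.2-fold either way. The intervals that reach past the dashed lines belong to Uqcrq and 6 isoforms of low level.

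In complex I the median log2 fold change of 38 subunits was 0.01, with 26 above and 12 below 0. Ndufs1, the largest core subunit (chr1:63190170-63223396), had 144 to 162 CPM with a median of 151 under the Wildtype label and 147 to 165 with a median of 156 under the Gadd45a-KO label. The ranges overlapped almost whole, and the log2 fold change was 0.03 (95% interval -0.05 to 0.11). Ndufv1, the subunit with the NADH site, was at 0.02 (-0.05 to 0.09). Ndufv2 and Ndufs3 had log2 fold changes of 0.03 and -0.00. Ndufs8, which carries iron-sulphur clusters, had -0.04 (-0.14 to 0.06). Ndufs7, the core subunit next to the quinone site, ran from 38.8 to 59.1 CPM (median 45.8) under the Wildtype label and from 41.0 to 52.0 (median 45.8) under the other, so that its libraries spread widely within each label, and its interval of -0.24 to 0.13 was the widest of the core.

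The 31 accessory subunits of complex I tested, by symbol and so with Ndufa4 and Ndufa4l2, had a median of 0.01, with 22 above and 9 below 0. Ndufa7 was lowest at -0.06 (-0.18 to 0.06), with 38.5 to 44.9 CPM (median 40.3) in libraries labelled Wildtype and 33.3 to 42.5 (median 39.3) in those labelled Gadd45a-KO. Ndufa10 was at 0.06 (-0.05 to 0.16). Ndufa4, the highest by level, had 152 to 172 CPM (median 160) and 157 to 184 (median 159) and a log2 fold change of 0.02 (-0.08 to 0.12). Its 6 libraries labelled Gadd45a-KO were close together except replicate 6. Ndufa4l2 (chr10:126951995-126954208) had 1.10 to 1.73 CPM with a median of 1.26 under the Wildtype label and 1.19 to 2.08 with a median of 1.69 under the Gadd45a-KO label, from 54 to 101 reads. The groups overlapped, 5 of 6 libraries labelled Gadd45a-KO were above the Wildtype mean, and the log2 fold change of 0.32 (SE 0.14) did not pass (adjusted p = 0.329, edgeR). Assembly factors with an Ndufaf name were between -0.03 and -0.00.

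In complex III, which hands electrons to cytochrome c, the median of 8 subunits was 0.01. Uqcrc2 had 193 to 207 CPM (median 197) under the Wildtype label and 189 to 214 (median 202) under the Gadd45a-KO label, with a difference of 0.02 (-0.05 to 0.10). Uqcrc1 and Uqcrfs1 had 0.01 each, with intervals of -0.09 to 0.11 and -0.06 to 0.08. The small subunits ran from Uqcrq at -0.07 to Uqcrh at 0.04. Uqcrq, which helps to bind quinone, spread from 37.1 to 53.9 CPM (median 45.7) and from 35.1 to 51.2 CPM (median 43.3), the widest relative spread among the members of at least 5 CPM, and its interval was -0.28 to 0.15. Uqcr11 had a difference of -0.01 (-0.18 to 0.15) and Uqcrb, which also binds quinone, 0.04 (-0.05 to 0.13).

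In complex IV the median of 15 tested subunits was 0.03, which 5 isoforms of low level, all above 0, helped to set. The 10 main isoforms alone had a median of 0.00, with 5 above and 5 below 0. Cox4i1 (chr8:123192190-123198109) had 278 to 311 CPM (median 286) and 283 to 304 (median 292) under the labels Wildtype and Gadd45a-KO, a difference of 0.02 (-0.06 to 0.09). Cox5a and Cox5b, matrix-side subunits, were at 0.04 (-0.06 to 0.15) and -0.05 (-0.20 to 0.09). Cox8a, a small membrane subunit, had 179 to 239 CPM (median 198) and 168 to 245 (median 188) and the lowest estimate of the members, -0.07 (-0.26 to 0.13). The highest library of Cox8a was one labelled Gadd45a-KO although the estimate was negative. Cox6a1, Cox6b1 and Cox7a2 were at -0.01, -0.01 and 0.03.

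Cox7a1, the heart and muscle isoform (ENSMUSG00000074218, chr7:30969190-30971047), had the largest estimate and the smallest p of the members. Its 6 libraries labelled Wildtype held 0.792, 0.779, 0.680, 0.739, 0.570 and 0.739 CPM and the 6 labelled Gadd45a-KO 1.02, 0.989, 0.848, 0.905, 0.866 and 0.798 CPM, in replicate order, from 30 to 52 reads per library. The labels did not overlap, but the gap between 0.792 and 0.798 CPM was smaller than 1 read. The log2 fold change was 0.34 (SE 0.12), a 1.26-fold difference (95% interval 0.09 to 0.59 on the log2 scale), and did not pass after adjustment over all genes (adjusted p = 0.168, edgeR). Against Cox7a2 at 128 CPM per kb it stood 57.6-fold lower. Cox6a2, the other muscle isoform tested, had 0.753 to 1.08 CPM (median 1.05) and 1.02 to 1.54 CPM (median 1.15), was above the Wildtype mean in 6 of 6 libraries labelled Gadd45a-KO, and had a log2 fold change of 0.25 (-0.03 to 0.53, adjusted p = 0.442, edgeR). Cox4i2 and Cox6b2 had 0.10 (-0.25 to 0.45) and 0.01 (-0.33 to 0.34).

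In complex V the median of 15 subunits was 0.02, with 9 above and 6 below 0. Atp5b had 865 to 950 CPM (median 915) under the Wildtype label and 898 to 973 (median 933) under the Gadd45a-KO label, and a difference of 0.03 (-0.04 to 0.11). Atp5a1, the alpha subunit, had 741 to 821 CPM (median 784) and 790 to 818 (median 805). It was above the Wildtype mean in all 6 libraries labelled Gadd45a-KO, yet within the Wildtype range, at 0.04 (-0.03 to 0.10). Atp5c1 was at 0.03 (-0.05 to 0.11), Atp5e at -0.02 (-0.13 to 0.10), and Atp5d, with the widest interval of the complex, at -0.02 (-0.22 to 0.17). The 3 c-ring genes lay at -0.01 or nearer to 0, and the membrane subunits Atp5j2 and Atp5k at 0.05 and 0.06 (-0.04 to 0.14 and -0.05 to 0.18).

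All 4 peripheral stalk genes were above 0, the highest being Atp5j at 0.05 (-0.03 to 0.13). Atp5j (chr16:84828111-84835870, minus strand) overlaps the start of Gabpa (chr16:84835170-84864024), which encodes the DNA-binding subunit of GABP on the other strand, and the counting kept strands apart. Gabpa had 33.9 to 38.4 CPM (median 36.3) and 30.9 to 36.3 (median 33.4), a log2 fold change of -0.11 (SE 0.05, adjusted p = 0.326, edgeR). Atp5sl, the complex I assembly factor with an Atp5 name, was the third member with an unadjusted p under 0.05. It had 27.4 to 30.6 CPM (median 29.4) and 28.4 to 32.7 (median 31.3), overlapping, and a log2 fold change of 0.09 (SE 0.04, adjusted p = 0.357, edgeR).

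Summed over the 87 genes, the libraries labelled Wildtype held 7177 ± 269 CPM (SD, n = 6) and those labelled Gadd45a-KO 7256 ± 269 CPM (SD, n = 6). By complex, the sums were 2270 ± 87.7 and 2293 ± 89.8 CPM for complex I, 723 ± 27.9 and 729 ± 30.9 for complex III, 1217 ± 70.1 and 1212 ± 70.2 for complex IV, and 2727 ± 96.0 and 2780 ± 80.0 for complex V. Each difference of means was smaller than the SD within either label. Without Gadd45a-KO replicates 2 and 3, 0 members were called and the median log2 fold change was 0.02.

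The members differed more between libraries of 1 label than between the labels. The level of each of the 78 members of at least 5 CPM was set against its own mean over the 12 libraries on the log2 scale. In Gadd45a-KO replicate 6, 75 of the 78 were above their mean, with a median of 0.10, and 36 had their highest value there. In Wildtype replicate 4, 69 were above (median 0.08). In Wildtype replicate 2, 71 were below (median -0.07), and in Wildtype replicate 6, 70 were below (median -0.05). Both labels thus held libraries in which nearly all members were high or low, and the library medians ran from -0.07 to 0.08 under the Wildtype label and from -0.04 to 0.10 under the Gadd45a-KO label.

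The complexes moved together in these libraries. In Gadd45a-KO replicate 6 the medians were 0.10 for complex I, 0.14 for complex III, 0.12 for complex IV and 0.11 for complex V, and in Wildtype replicate 2 they were -0.07, -0.06, -0.08 and -0.06. Values that share a library share its scaling, so agreement between complexes is a description of the libraries. A principal component over the 78 members held 56.6% of their variance, with 73 loadings of 1 sign. The spread of a member over the 12 libraries was 0.08 as the median SD of log2 CPM, against 0.09 for 11207 other genes of at least 5 CPM.

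**Figure D4:**
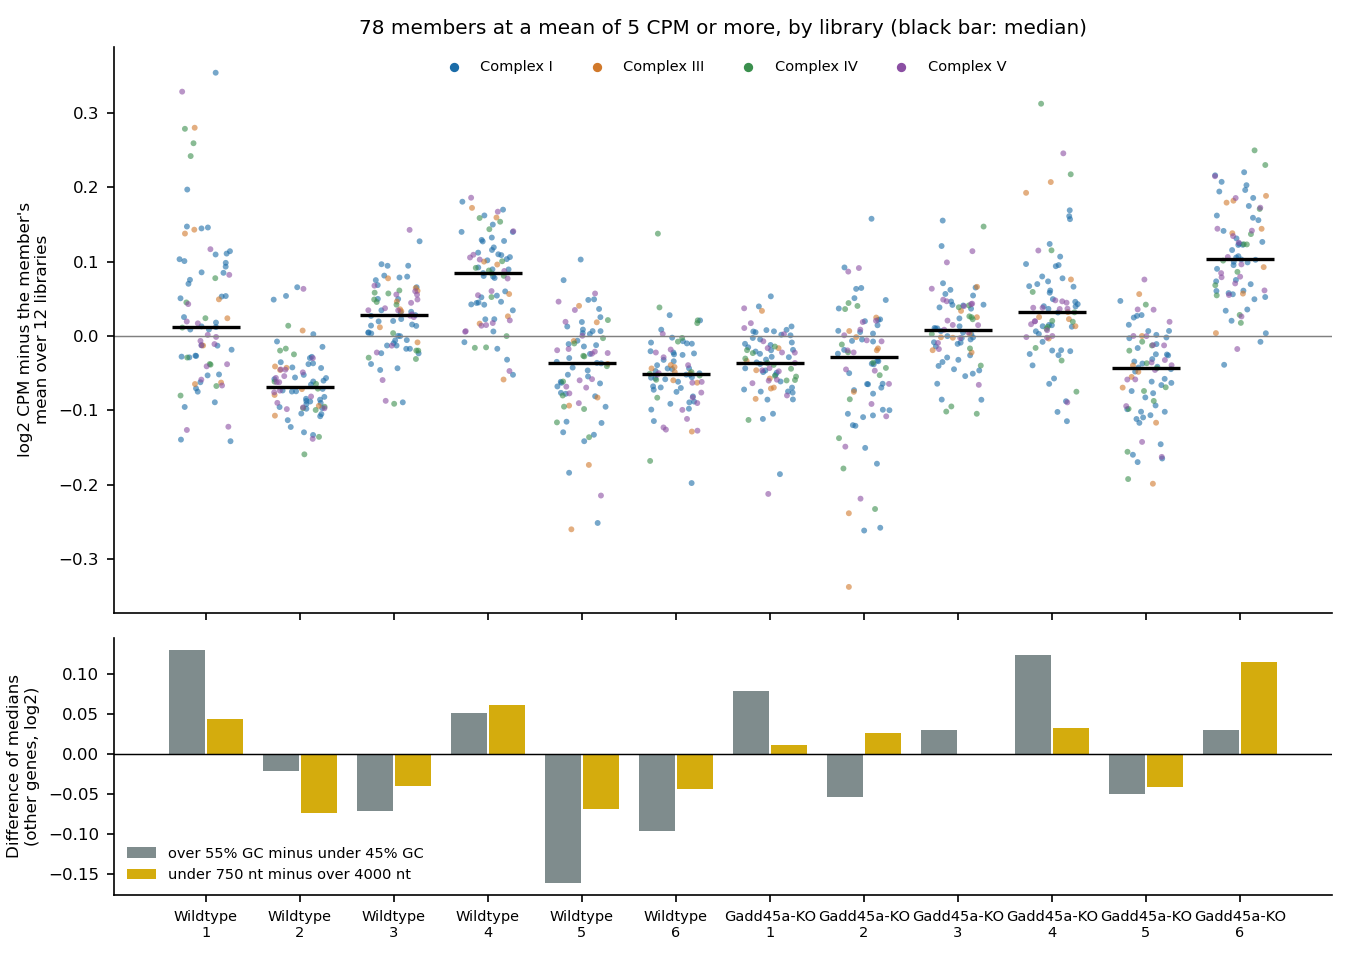
Upper panel, log2 CPM of 78 members minus each member's mean over 12 libraries, with a bar at the median of each library, coloured by complex. Lower panel, for genes that are not members, the median deviation of those over 55% GC minus those under 45% GC (grey) and of those under 750 nt minus those over 4000 nt (yellow). The median bar is highest in Gadd45a-KO replicate 6 and lowest in Wildtype replicate 2, which also have the highest and the lowest length difference.

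The library medians were set beside the behaviour of short mRNAs in general. Among genes that are not members, the median deviation of 1306 genes under 750 nt minus that of 2903 genes over 4000 nt had the sign of the members' median in 8 libraries and the other sign in 4, Wildtype replicate 3 and Gadd45a-KO replicates 1 to 3. It was 0.11 in Gadd45a-KO replicate 6 and 0.06 in Wildtype replicate 4, and -0.07 in Wildtype replicates 2 and 5. After a smooth trend on transcript length was taken from each library, the SD of the 12 library medians went from 0.0543 to 0.0467 and 61 of 78 members had a smaller SD. The members' common movement therefore remained after the length trend, and its cause was not tested. The sums of neuronal markers, 11046 to 12043 CPM and 11293 to 12416 CPM under the 2 labels, were 11595 in Wildtype replicate 4 and 11293 in Gadd45a-KO replicate 6, and their part was not tested either.

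A few members varied more than the rest, and most of these had GC-rich mRNAs. Uqcrq, Atp5d, Cox8a, Uqcr11, Ndufs7 and Cox6a1 had the largest loadings on the component, with SDs of 0.19, 0.17, 0.17, 0.15, 0.17 and 0.14. Atp5d ran from 83.4 CPM in Gadd45a-KO replicate 2 to 122 in Wildtype replicate 1, and Cox6a1 from 138 to 187 CPM in the same libraries. Cox8a ran from 168 CPM in Gadd45a-KO replicate 2 to 245 in Gadd45a-KO replicate 4. The 10 members with the largest loadings had a median GC content of 58.6% and the 10 with the smallest 44.8%, and 9 of the first 10 were above the members' median of 50.4%, the other being Uqcrq at 49.9%. In genes that are not members, those over 55% GC stood above those under 45% GC by 0.13 in Wildtype replicate 1 and by 0.12 in Gadd45a-KO replicate 4, and below by 0.16 in Wildtype replicate 5 and 0.05 in Gadd45a-KO replicate 2. In Gadd45a-KO replicate 6, where 75 of the 78 members were above their mean, they stood above by 0.03. In Gadd45a-KO replicate 1, where 63 members were below, they stood above by 0.08. With a smooth trend on GC content taken from each library, the SD fell to 0.06 for Cox6a1 and to 0.13 for Atp5d but was 0.21 for Uqcrq, and it was smaller for 21 of the 78 members in all.

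**Figure D5:**
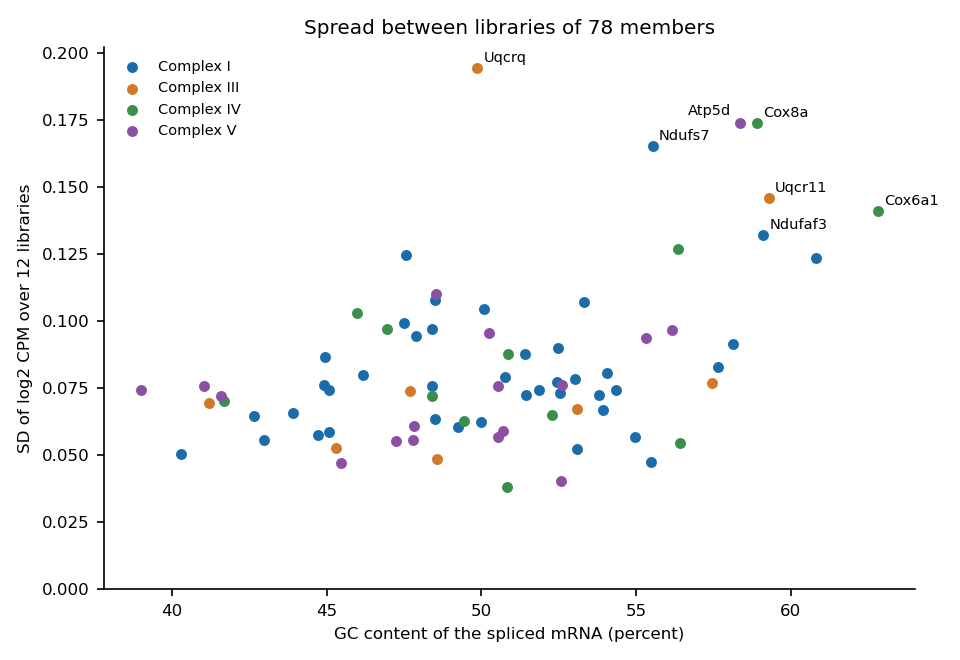
SD of log2 CPM over 12 libraries against the GC content of the spliced mRNA for 78 members, coloured by complex, with names above an SD of 0.13. Atp5d, Cox8a, Ndufs7, Uqcr11, Ndufaf3 and Cox6a1 lie at 55.5% GC or more, and Uqcrq at 49.9% has the largest SD, 0.19.

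Because these mRNAs are short, their place in the length trend of the whole comparison was read off. Over all genes tested the median log2 fold change was between -0.01 and 0.02 in each class up to 3000 nt, -0.02 from 4000 to 6000 nt and -0.08 over 6000 nt. The share called was 0.178% in the class of 750 to 1000 nt and 15.3% over 6000 nt. The members had a median transcript length of 687 nt against 2274 nt for all genes. Of the 84 tested, 83 lay in the classes up to 3000 nt and 1, Cox4nb, in that of 4000 to 6000 nt, with a log2 fold change of 0.02. The 38 members of 500 to 750 nt had a median of 0.00, beside 0.01 for all 931 genes of that class.

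The 13 subunits encoded by mtDNA form the centre of complexes I, III, IV and V. Of these, 12 were tested and 0 were called, with 12 of 12 estimates above 0 and a median of 0.06. They are cut from long shared transcripts and so are not independent. For mt-Co1, mt-Nd3 and mt-Atp6 the median CPM was lower under the Gadd45a-KO label, and for the others tested it was higher. mt-Nd1 had 4848 to 5659 CPM (median 5170) under the Wildtype label and 5116 to 6651 (median 5286) under the Gadd45a-KO label, a log2 fold change of 0.09 (SE 0.07, adjusted p = 0.662, edgeR). mt-Co1, with the heme copper site of complex IV, was at 0.04 (SE 0.07). mt-Nd4l, at 9877 to 10173 of mtDNA, overlaps mt-Nd4 (10167 to 11544) only at its end. With 0 to 2 reads per library mt-Nd4l was not tested, and the cause of its missing reads was not tested either. Summed mtDNA-encoded mRNA was 57353 to 71504 CPM and 60857 to 76454 CPM under the 2 labels, and highest in Gadd45a-KO replicate 6. That was 7.79 to 10.2 and 8.33 to 9.96 times the summed CPM of the 87 nuclear genes. The sums hold almost nothing from mt-Nd4l and mt-Atp8, the latter with 40 to 97 reads per library beside 43865 to 71724 for mt-Atp6. How complete the counts of mtDNA genes are was not tested, so the sums and ratios are uncertain.

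Complex II, which is wholly nuclear and feeds electrons from succinate, had 0 of 4 genes called, with Sdha at 0.02 (SE 0.03). Cytochrome c (Cycs) and cytochrome c1 (Cyc1) were at 0.03 and -0.02, and 0 of the 2 were called. Of 35 assembly factors that are not members 0 were called, with 2 at an unadjusted p under 0.05. Mitochondrial carriers and import genes had 0 of 13 called and glycolysis 0 of 16. In the citrate cycle 1 of 13 was called, Suclg1, a subunit of succinyl-CoA ligase (chr6:73198376-73226905), with 80.0 to 86.8 CPM (median 82.7) under the Wildtype label and 89.0 to 97.1 (median 93.1) under the Gadd45a-KO label. Suclg1 was higher by 0.18 on the log2 scale (SE 0.03, adjusted p = 0.003, edgeR), and its groups did not overlap. It lies 6.2 Mb from Gadd45a on chromosome 6. The 4 members on that chromosome, Ndufb2, Ndufa5, Ndufa4 and Ndufa9, lie 27.4 to 59.8 Mb away and were not called. The part of the position of Suclg1 in its difference was not tested. In 1 knockout line it cannot be told apart from that of Gadd45a itself. Without Gadd45a-KO replicates 2 and 3 the adjusted p of Suclg1 was 0.027 (edgeR), so that the call at 1% FDR was lost, at a log2 fold change of 0.17.

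Among 13 regulators of these genes 0 were called and 4 had an unadjusted p under 0.05 (edgeR). Their median log2 fold change was -0.06, with 11 below 0. Over all genes tested, 13.7% had an unadjusted p under 0.05 by edgeR and 51.8% were above 0. The regulators had a median transcript length of 2171.5 nt, against 687 nt for the members and 2274 nt for all genes. With the length offset 0 of them were called, as without it. The part of transcript length in their estimates was not tested. Creb1, the cAMP-responsive factor that acts on the PGC-1alpha gene, had 58.8 to 67.7 CPM (median 62.3) and 52.0 to 58.4 (median 57.4), without overlap, and -0.17 (SE 0.04, adjusted p = 0.041, edgeR). Ppargc1a, which encodes PGC-1alpha, had 45.7 to 52.0 CPM (median 49.8) and 41.3 to 50.6 (median 43.1) and -0.16 (SE 0.05, adjusted p = 0.126, edgeR). Ppargc1b, its relative, was at -0.31 (SE 0.09, adjusted p = 0.064, edgeR). Nrf1 and Yy1, whose letters were searched in the promoters, were at -0.03 and -0.02 (both SE 0.04), and Tfam, which packs and transcribes mtDNA, was at -0.03. These lists were made with earlier results of the data known, and their counts are descriptions.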

How the data were processed

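The authors prepared stranded poly(A) libraries from hippocampal RNA, aligned the reads with TopHat 1.4.1 to NCBIM37/mm9 and counted them per Ensembl gene with HTSeq 0.5.4p3, strand included, and their deposited values are raw read counts, neither normalized nor pooled. The study tested with DESeq 1.16.0 at 1% FDR, which set the threshold used here. Rows without a gene were left out; alignments that were not unique made up 11.5 to 12.9% of all rows' counts. An annotation of the same build named 37205 of the 37991 gene IDs.

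Counts were filtered, scaled by TMM and tested with the quasi-likelihood test of edgeR 4.0.16 (R 4.3.3), over all genes, without covariates. The procedure was also run on simulated counts that took their means and dispersions from these data. Intervals are 95% t intervals of the fit. Log2 CPM used a prior count of 2. Alternatives were DESeq2 1.42.0, other filters and scalings, a replicate block, GC and length offsets (splines with 5 degrees of freedom), 1 surrogate variable (sva 3.50.0), leaving out libraries, and, chosen after seeing the data, an offset on total exon length, leaving out Gadd45a-KO replicates 2 and 3, and leaving out members with over 10% repeated windows. Summaries were made with Python 3.11.15. No source says which mice share a litter or batch. Libraries of 1 label differed beyond counting error (chi-square per degree of freedom 8.60 to 37.8 over 30 pairs).

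Members named are those past 1% FDR, the 2 lowest and 2 highest log2 fold changes and the highest level in each complex, the 5 smallest p, core subunits and isoform sets. Members and lists were chosen with earlier results of these data known. Protein sequences were not used here, and 1 tested member, counted in all totals, is not reported here by name or in the plots by gene.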

Additional observations from a re-analysis of the deposited data

Results flagged for a closer look

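Of 84 groups of 6 libraries examined (42 tested named members under each label), 5 held a library whose gap to the nearest other library was over 0.625 of the group's range, where chance gives about 1 in 20, or 4.2. In 4 of the 5 the library was Gadd45a-KO replicate 6 and the value was the highest of the group. It held 184 CPM for Ndufa4 against 157 to 161 in the other 5 libraries with that label, 97.3 CPM for Ndufv2 against 87.8 to 89.7, 109 CPM for Cox7a2 against 93.1 to 97.3, and 28.8 CPM for Atp5g2 against 24.0 to 25.6. These are members of complexes I, IV and V, and the same library had 75 of 78 members above their mean. It also had the largest difference between short and long mRNAs of other genes, 0.11 on the log2 scale, whose part was not tested. Wildtype replicate 3 was the lowest of its group for Cox6a2, with 0.753 CPM against 0.989 to 1.08, at 41 to 80 reads per library in all.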

How the results depend on the processing

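The count of members called was 0 under all alternatives run, 5% FDR included, and the smallest adjusted p of any member in any of them was 0.111 (Cox7a1). The median log2 fold change of the members lay between 0.01 and 0.04 over the alternatives, from 0.006 without Gadd45a-KO replicate 6 to 0.037 without Wildtype replicate 4. Medians by complex lay between -0.003 and 0.055 and moved by less than the SD of the library medians. That of complex I was -0.002 without Gadd45a-KO replicate 6, and that of complex III -0.003 under the GC offset. Of 1008 values of 42 named members, 12 moved by over 1 SE, 126 in 21 members had the other sign, the largest of them 0.15 in size, and 0 passed 1% FDR. Cox7a1 ranged from 0.29 to 0.38 and Ndufa4l2 from 0.25 to 0.42.

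The replicate block gave 0 members called, a median of 0.013 and 1 pathway gene, as without it. Of the 6 pairs of equal number, 5 had correlated deviations over 0.1, from -0.08 to 0.26. Pairs of unequal number ran from -0.33 to 0.26. Of the 6 libraries of each label, 3 labelled Gadd45a-KO and 2 labelled Wildtype correlated best with their own number. These values do not settle whether the numbers pair the animals, and the main fit used no block. Over all genes, 434 were called, 514 with the block, 685 with DESeq2, 746 at 5% FDR, 281 with the exon length offset, 242 to 470 without 1 library and 202 without Gadd45a-KO replicates 2 and 3. Depth limits the isoforms with under about 100 reads per library, whose intervals exceed 1.2-fold.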
